A study of Mus musculus with 12 samples.

Results

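Wild-type (WT) mouse colon was compared between the arrays titled DSS and the arrays titled untreated (UT). The members were chosen by the sample titles, and they are 4 arrays of the 12 in the series, 2 in each titled group. The series holds single-colour whole-genome oligonucleotide arrays of colon RNA from male C57BL/6J mice of 3 genotypes: WT, ATF6aKO (knockout of Atf6) and ATF6bKO (knockout of Atf6b), each with 2 UT and 2 DSS arrays. Treated mice drank 3 percent dextran sulfate sodium (DSS) for 3 days, per the labels, and control mice of the same genotype were untreated. The labels give no age, and whether the 2 samples of a group are 2 animals, pools or 1 extract is not stated in them. All p-values here thus cover the variation among these arrays alone, and this variation may be technical. The UT arrays of the other 2 genotypes carry the knockout as well, so only the WT arrays come from colon with both ATF6 genes, and the labels do not say how the knockouts were made.

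The labels of the 4 WT samples conflict, and the conflict sets the sign of every WT result. The titles and source names call 2 samples DSS and 2 samples UT, while the descriptions and the treatment field of the same samples state the reverse. The groups are called "titled DSS" and "titled UT" here, and each difference is titled DSS minus titled UT. Under the treatment field each difference has the opposite sign, with the same size and the same p. The sign was judged only against the 8 knockout arrays, whose labels do not conflict.

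DSS is a sulfated polysaccharide that damages the colonic epithelium, so that bacteria reach the mucosa and neutrophils, monocytes and T cells enter it. Crypt bases hold Lgr5-positive stem cells, which need Wnt signals and renew the epithelium through dividing progenitors. ATF6a and ATF6b sit in the membrane of the endoplasmic reticulum (ER): when unfolded proteins accumulate they move to the Golgi apparatus, are cleaved, and release fragments that bind ER stress elements in the promoters of chaperone genes such as Hspa5. The intestinal epithelium secretes large amounts of mucin and antimicrobial protein and depends on this unfolded protein response (UPR).

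Levels are given as log2 of the processed signal relative to the array's 75th percentile signal, so a level of 0 equals that percentile. They compare arrays for 1 gene, not genes with each other. "Higher", "lower", "rose" and "fell" are used of single genes only where limma's adjusted p, over the 23210 genes or transcripts tested, was under 0.05. The tissue label was checked on the WT arrays first. Car1, a carbonic anhydrase of colonic surface cells, had levels of 7.58 and 8.02 on the titled UT arrays and of 6.22 and 7.09 on the titled DSS arrays. Slc26a3, the chloride exchanger of colonocytes, had 5.56 and 5.08, then 4.88 and 4.89. Both are among the brighter genes on all 4 arrays. The targeted genes followed the genotype labels: Atf6 was at 0.93 and 0.72 (titled UT) and at 0.60 and 0.85 (titled DSS), against -3.23 to -3.04 on the 4 ATF6aKO arrays. Atf6b lay between -1.10 and 0.16 on the WT arrays and between -7.64 and -4.14 on the ATF6bKO arrays. Neither differed between the WT groups past the threshold (Atf6 -0.10, SE 0.17, adjusted p = 0.683, and Atf6b 0.73, SE 0.91, adjusted p = 0.565). Each SE here and below rests on the spread within all the groups of the series. That of Atf6b thus takes in the ATF6bKO arrays and does not measure the WT spread alone.

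The 2 titled UT arrays stood apart from each other before any comparison. Their levels differed by a median of 0.484 log2 units over all genes, against 0.189 for the 2 titled DSS arrays and 0.169 to 0.217 in the other groups. A difference over 1 was seen for 14.9% of genes between the titled UT arrays and for 4.89% between the titled DSS arrays. The 75th percentile signal was 687 and 908 on the titled UT arrays and 1187 and 724 on the titled DSS arrays, so brightness did not separate the groups, and it was 246 to 621 on the knockout arrays. All 4 WT arrays lay on 1 slide with 1 scan, and each genotype had a slide of its own, so genotype and slide cannot be told apart, while the WT difference itself lies within a slide. In the knockouts, 1 array stood apart as well: the mean level of 12 markers of squamous epithelium was 2.78 on ATF6bKO DSS replicate 2 and -3.31 to -0.86 on the other 7 knockout arrays.

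The titled groups differed widely. Of the 23210 genes tested, 7372 (31.8%) passed the threshold: 3424 (14.8%) were higher and 3948 (17.0%) lower in titled DSS, and 4413 of them differed by at least 1 log2 unit. The median difference over all genes was -0.04. The arrays of the 2 groups did not overlap for 14938 genes (64.4%), with titled DSS above for 30.2% and titled UT above for 34.1%. These counts rest on a spread shared over the 6 groups: with the 4 WT arrays fitted alone, 396 genes were higher and 240 lower, and with a separate weight for each array 997 were higher and 1094 lower. List counts from the WT arrays alone, given below, stand against these 396 and 240 of 23210 genes. Leaving out single WT arrays gave 1462 higher genes (without titled DSS replicate 1) to 4903 higher genes (without titled UT replicate 2), and 1499 lower genes (without titled DSS replicate 2) to 5560 (without titled UT replicate 2).

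The 12 largest named differences upward were Clec4e, Tcf7l1, Tmem145, Has1, Il6, Mmp3, Zc3h13, Chrdl2, Egr1, Tnrc18, Arc and Cxcl5, from 3.80 down to 2.93. The 12 largest downward were Olfr134, Hamp, Pla2g4c, Spaca1, Olfr902, Lgr5, 4933402J07Rik, Pnliprp2, Cpn1, Reg4, Pimreg and Adam18, from -6.23 to -3.27. In the fit of the 4 WT arrays alone 11 of the first 12 and 11 of the second 12 passed; Cxcl5 (adjusted p = 0.161) and Spaca1 (adjusted p = 0.061) did not. With a weight for each array 10 and 8 passed, without Arc and Cxcl5 (adjusted p up to 0.142) and without Adam18, Pla2g4c, Pnliprp2 and Spaca1 (up to 0.31). Several of the second 12 were not well above background in titled DSS, so their sizes and order depend on how the background is treated: with normexp correction the sizes of the second 12 ran from 0.575 to 3.32 and Pla2g4c and Spaca1 did not pass, and those of the first 12 ran from 0.647 to 3.15.

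**Figure D1:**
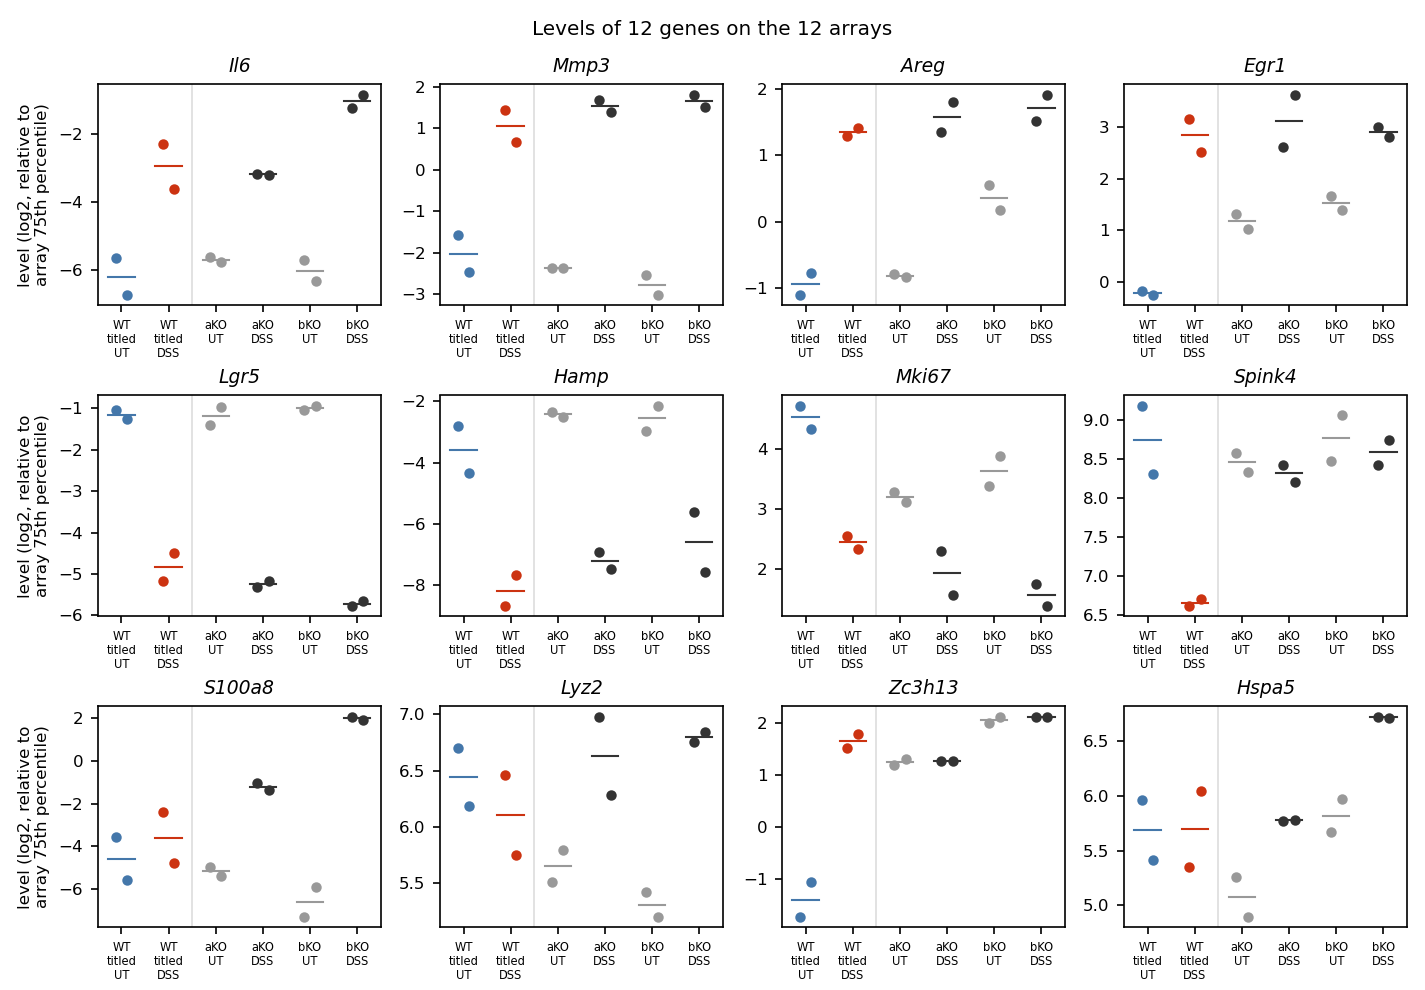
Levels (log2, relative to the array's 75th percentile signal) of 12 genes on all 12 arrays; each point is 1 array, each bar the mean of a group, aKO is ATF6aKO and bKO is ATF6bKO. Il6, Mmp3, Areg and Egr1 are higher and Lgr5, Hamp and Mki67 lower in titled DSS, on the side of the knockout DSS arrays; Spink4 and Zc3h13 differ between the WT groups and not between the knockout groups; S100a8 and Lyz2 rise in the knockouts, while their WT groups overlap.

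The sign of the WT difference was set against the knockouts. Pooled over both knockouts, 3076 genes rose with DSS (13.3%) and 3676 fell (15.8%). These are the shares over all genes to hold against each knockout count of a gene list below. Of the 3676 that fell, 1238 (33.7%) were lower and 280 (7.62%) higher in titled DSS, against 17.0% and 14.8% of all genes. Of the 3076 that rose, 720 (23.4%) were higher and 216 (7.02%) lower. Among the 936 genes that fell by at least 1 in the knockouts, 44.8% were lower and 2.24% higher in titled DSS, and their median WT difference was -0.79. Among the 1033 that rose by at least 1, 21.1% were higher and 5.62% lower, with a median of 0.29. By the titles, the WT difference thus had the sign of the knockout response more often than the opposite sign, and by the treatment field it had the opposite sign more often.

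Single WT arrays gave the same order for the genes that fell and a weaker one for those that rose. At the genes that fell by at least 1 in the knockouts, the median level was -1.61 and -1.67 on the titled UT arrays and -2.50 and -2.60 on the titled DSS arrays. At the genes that rose by at least 1, it was -3.37 and -3.39 on the titled UT arrays and -2.86 and -3.27 on the titled DSS arrays. Across genes, which are not independent replicates, the correlation of the WT difference with the response was 0.321 for ATF6aKO and 0.132 for ATF6bKO, while the 2 knockout responses correlated at 0.614. The share of WT calls with a knockout counterpart was limited: the 720 shared genes are 21.0% of the genes higher in titled DSS, and the 1238 are 31.4% of those lower. Of the 16458 genes not called in the knockouts, 2424 were higher and 2494 lower in WT.

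The difference between the WT difference and the mean knockout response was tested for each gene under both readings. It passed for 4627 genes (19.9%) with the titles and for 8505 genes (36.6%) with the treatment field. Both tests use the same 12 arrays and the same spread.

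In the deposited value table the WT arrays stand under exchanged names. Each of its 4 WT columns equalled the array of the other titled group (correlations of at least 0.9997 after centring, against 0.2215 to 0.3688 with the array of its own sample). Taken by column name, the titled difference of Lgr5 was 3.61 in that table and -3.68 in the scanner files, and that of Mmp3 was -3.14 against 3.07. The value table read by the treatment field and the scanner files read by the titles therefore give 1 sign, and the opposite 2 combinations give the other. The sources used here do not say which assignment is wrong.

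**Figure D2:**
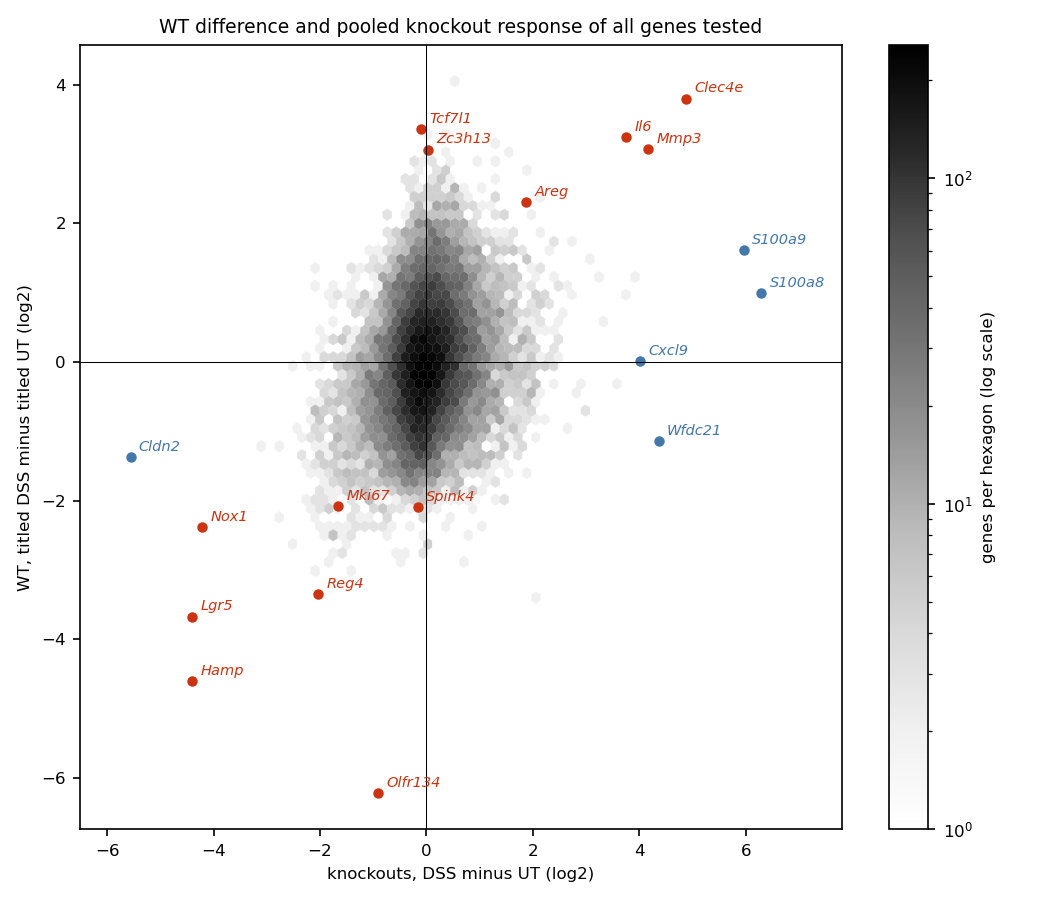
WT difference (titled DSS minus titled UT, log2, vertical) against the DSS response pooled over the knockouts (horizontal) for 23210 genes, as hexagons shaded by gene number on a log scale; named genes are red where the WT difference passed the threshold and blue where it did not. Clec4e, Il6 and Mmp3 lie far up and right and Lgr5, Hamp and Nox1 far down and left; S100a8, S100a9 and Cxcl9 lie far right with small WT differences, and Tcf7l1 and Zc3h13 far up with none in the knockouts.

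Cytokines, chemokines and other acute inflammatory genes stood higher in titled DSS. Of 21 such genes tested, 11 were higher and 0 lower (14.8% and 17.0% of all genes), with a median difference of 1.43, against -0.04 over all genes. The titled DSS arrays lay above both titled UT arrays for 15 (30.2% of all genes). Il6, a cytokine of the acute phase, had levels of -5.65 and -6.74 (titled UT) and -2.28 and -3.61 (titled DSS). It was not well above background on either titled UT array, and the difference of 3.25 (SE 0.47, adjusted p = 0.00287) corresponds to at least 9.16-fold. Such bounds set the mean of the bright group against the dimmest signal that the scanner program called well above background. In the knockouts Il6 rose by 3.75.

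The chemokines for neutrophils moved less evenly. Cxcl2 was at -7.62 and -7.58, then at -5.31 and -5.69 (2.10, SE 0.36, adjusted p = 0.00485), and was above background on only 1 of the 4 arrays, titled DSS, for a bound of at least 1.61-fold. Cxcl5, made by injured epithelium, had -3.19 and -6.62 in titled UT and -1.00 and -2.96 in titled DSS (2.93, SE 0.97, adjusted p = 0.0485). The gap between its 2 titled UT arrays exceeds the difference between the groups, and without titled DSS replicate 1 its adjusted p was 0.252. Cxcl1 had -3.69 and -4.49, then -1.87 and -3.10 (1.61, SE 0.43, adjusted p = 0.0232; 0.135 without titled DSS replicate 1). The knockout response of Cxcl1 was 3.36, and the WT difference was smaller by 1.75 (adjusted p = 0.0481; 0.164 without titled DSS replicate 2).

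Il1b, the inflammasome cytokine, had levels of -2.46 and -2.57 in titled UT and of -0.43 and -1.27 in titled DSS, a difference of 1.67 (SE 0.40, adjusted p = 0.0157; 0.0986 without titled DSS replicate 1). Il22, a cytokine of lymphocytes that acts on epithelium, rose by 4.13 in the knockouts; its WT levels were -6.51 and -8.11, then -5.76 and -6.15 (1.36, SE 0.55, adjusted p = 0.0908). In the fit of the 4 WT arrays alone 3 of the 21 inflammatory genes were higher, and without titled DSS replicate 1 it was 5.

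Matrix enzymes followed. Of 15 matrix metalloproteinases and inhibitors, 8 were higher and 1 lower (14.8% and 17.0% of all genes). The median was 1.1, and in the knockouts 11 rose and 0 fell. Mmp3, stromelysin 1 of stromal cells, had -1.58 and -2.46 in titled UT and 1.45 and 0.66 in titled DSS (3.07, SE 0.35, adjusted p = 0.00172), which is 8.42-fold; it rose by 4.17 in the knockouts. Adamts4, an aggrecan-cleaving protease, had -4.98 and -5.01, then -1.71 and -2.64 (2.82, SE 0.52, adjusted p = 0.00655), and its knockout responses were 3.54 in ATF6aKO and 0.26 in ATF6bKO. Mmp7, matrilysin, was the 1 member lower: -1.44 and -1.82 in titled UT against -4.65 and -4.17 in titled DSS (-2.78, SE 0.32, adjusted p = 0.0018). Its difference from the mean knockout response, -1.92, passed the threshold (adjusted p = 0.0169; 0.0644 without titled DSS replicate 1). Without titled UT replicate 1 the number of higher members was 5, and in the fit of the WT arrays alone it was 4.

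Ligands of the epidermal growth factor (EGF) receptor family, which drive epithelial repair, were higher for 4 of 8 and lower for 0. The shares over all genes were 14.8% and 17.0%, and the median of the 8 was 0.76. Ereg (epiregulin) had -6.33 and -5.45, then -2.88 and -3.83 (2.54, SE 0.45, adjusted p = 0.00571; 0.0507 in the WT arrays alone). Areg (amphiregulin) had -1.11 and -0.78, then 1.29 and 1.42 (2.31, SE 0.23, adjusted p = 0.00141), or 4.95-fold. Nrg1 (neuregulin 1) had -4.34 and -3.59, then -1.88 and -2.37 (1.84, SE 0.35, adjusted p = 0.00708). Their knockout responses were 2.32, 1.88 and 2.58, and none of the 8 members differed past the threshold between WT and the knockouts under the titles. In the WT arrays alone 1 of the 8 was higher.

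Immediate early and heat shock genes, which respond to growth factors and stress within minutes, were higher for 7 of 16 and lower for 0. Over all genes the shares were 14.8% and 17.0%. The median of the 16 was 1.02, and in the knockouts 4 rose and the median was 0.11. Egr1 had -0.16 and -0.26 in titled UT and 3.16 and 2.52 in titled DSS (3.05, SE 0.34, adjusted p = 0.00163). It rose by 1.66 in the knockouts, and the WT difference was larger by 1.39 (adjusted p = 0.0454; 0.157 without titled DSS replicate 1). Fosb had -5.05 and -4.07, then -2.79 and -2.51 (1.91, SE 0.35, adjusted p = 0.0061), with a knockout response of 0.22. Egr2 had -3.36 and -3.41, then -1.13 and -1.94 (1.85, SE 0.31, adjusted p = 0.00478). Arc, an early gene best known from neurons, had -4.67 and -4.04, then -1.15 and -1.68 (2.94, SE 0.52, adjusted p = 0.00546). The count of 7 became 1 in the fit of the WT arrays alone and 4 without titled UT replicate 1.

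Most neutrophil, macrophage, and T and NK cell markers rose in the knockouts and did not pass in WT. Of 14 B and plasma cell markers 0 rose and 0 fell past the threshold in the knockouts, where their median was 1.20. In bulk tissue, fewer cells of a type and less RNA per cell cannot be told apart. Of 18 neutrophil markers 2 were higher (Clec4e and Csf3r) and 0 lower (14.8% and 17.0% of all genes), with a median of 0.12, while 15 rose in the knockouts with a median of 2.18. The mean level of the neutrophil list was -4.24 and -4.51 on the titled UT arrays and -3.55 and -4.41 on the titled DSS arrays; it was -4.86 to -4.44 on the knockout UT arrays and -3.17 to -1.56 on the knockout DSS arrays. S100a8, a calcium-binding protein that fills neutrophils, had -3.57 and -5.60 in titled UT and -2.40 and -4.79 in titled DSS, and the groups overlapped (0.99, SE 0.85, adjusted p = 0.399). It rose by 6.29 in the knockouts, and the WT difference was smaller by 5.30 (adjusted p = 0.0145; 0.0525 without titled DSS replicate 2). S100a9, its partner, had -1.68 and -3.12, then 0.15 and -1.72, again with an overlap (1.61, SE 0.59, adjusted p = 0.0656), against a knockout rise of 5.96.

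The 2 neutrophil-list genes that passed are receptors of myeloid cells. Clec4e, a lectin that senses mycobacterial and damage-derived lipids, had -7.80 and -8.37 in titled UT, not well above background, and -3.90 and -4.67 in titled DSS (3.80, SE 0.37, adjusted p = 0.00124), at least 3.75-fold. Csf3r, the receptor of granulocyte colony-stimulating factor, had -7.17 and -6.33, then -4.62 and -5.51 (1.68, SE 0.42, adjusted p = 0.0173; 0.108 without titled DSS replicate 1), and was above background on 1 WT array.

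Of 19 monocyte and macrophage markers 1 was higher and 0 lower in WT (14.8% and 17.0% of all genes). Their median was -0.31, and 18 rose in the knockouts (median 1.41). Lyz2, lysozyme of macrophages, had 6.70 and 6.19, then 6.46 and 5.75 (-0.33, SE 0.31, adjusted p = 0.441), while it rose by 1.23 in the knockouts. Of 16 T and NK cell markers 1 was higher (Ccl5, 1.31) and 2 lower (Cd2, -1.33, and Klrd1, -0.84), with a median of -0.21, and 13 rose in the knockouts. Each of these 3 calls was lost on leaving out 1 array: Ccl5 without titled UT replicate 1 (adjusted p = 0.248), Cd2 (0.168) and Klrd1 (0.208) without titled DSS replicate 2. Of 14 B and plasma cell markers 0 were higher and 2 lower, Tnfrsf17 (-1.80; adjusted p = 0.156 without titled UT replicate 1) and Mzb1 (-1.35; 0.203 without titled DSS replicate 2). The WT difference lay below the mean knockout response past the threshold for 8 neutrophil, 11 monocyte and macrophage and 10 T and NK cell markers (9.60% of all genes). In ATF6aKO the mean level of the T and NK cell list was -3.65 and -3.46 (UT), then -2.50 and -2.99 (DSS). In ATF6bKO it was -4.14 and -3.55, then -1.62 and -1.59, and in WT -3.51 and -2.91, then -3.28 and -3.48.

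Genes that interferons induce stood higher in part. Of 26 tested, 7 were higher and 0 lower (14.8% and 17.0% of all genes), with a median of 0.45. A positive sign was seen for 25, and in the pooled knockouts 19 rose, with a median of 1.53. The 2 knockouts were unlike. The mean level of the list was -0.49 and -0.62 (UT), then 0.38 and 0.0024 (DSS) in ATF6aKO. In ATF6bKO it was -0.56 and -0.16, then 2.23 and 2.26. In WT it was 0.21 and -0.34 (titled UT), then 0.60 and 0.57 (titled DSS). Cxcl10, a chemokine for T cells, had -1.48 and -1.99, then 0.85 and 0.41 (2.37, SE 0.29, adjusted p = 0.0021), or 5.16-fold. Oasl2, of the oligoadenylate synthetase family, had -1.22 and -0.95, then 1.04 and 1.42 (2.31, SE 0.32, adjusted p = 0.00266). Gbp5, a guanylate-binding protein, had -1.24 and -2.36, then -0.14 and -0.82 (1.32, SE 0.39, adjusted p = 0.0319; 0.175 without titled DSS replicate 1). Cxcl9, induced by interferon gamma, had -0.68 and -2.36, then -1.49 and -1.53 (0.01, SE 0.68, adjusted p = 0.990), against a knockout rise of 4.02. None of the 8 genes of MHC class II passed in WT, and 7 rose in the pooled knockouts. Their mean level was 0.82 and 1.24 (UT), then 2.17 and 1.43 (DSS) in ATF6aKO. In ATF6bKO it was 0.21 and 0.63, then 2.91 and 2.86, and in WT -0.34 and 0.80, then 0.67 and 0.02. Without titled DSS replicate 1, 2 interferon genes were higher, as in the fit of the WT arrays alone.

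**Figure D3:**
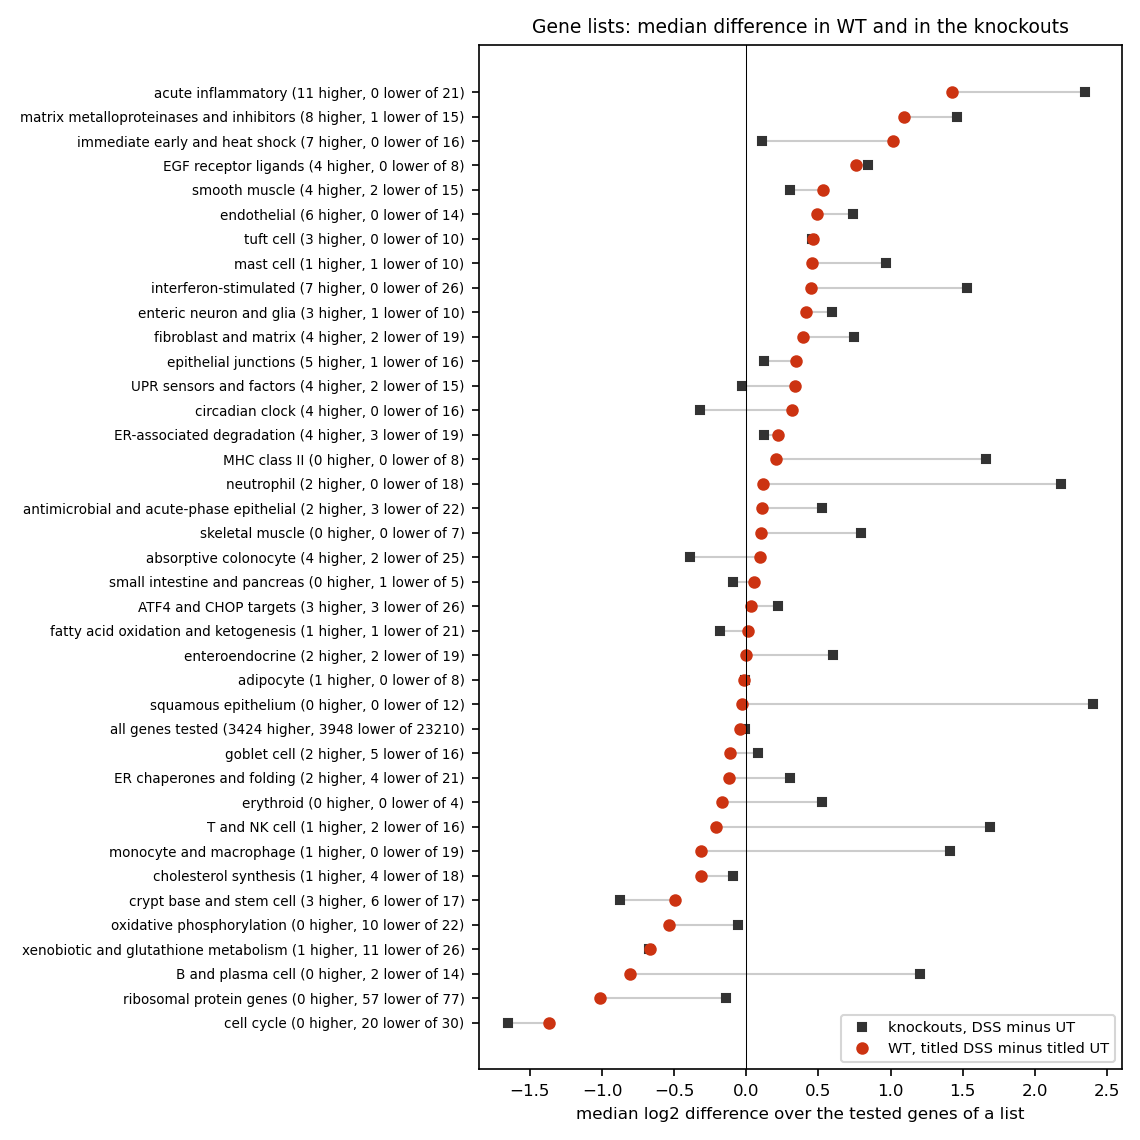
Median log2 difference over the tested genes of each gene list in WT (titled DSS minus titled UT, red circles) and in the pooled knockouts (DSS minus UT, dark squares), with the WT counts past the threshold beside each name; the list of ribosomal protein genes was added after the values were seen. Acute inflammatory genes and matrix enzymes lie right and cell cycle genes left in both; neutrophil, macrophage, T cell and MHC class II lists lie near 0 in WT and right in the knockouts.

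The stem cell marker of the crypt base was lower in titled DSS. Lgr5, the R-spondin receptor that marks colonic stem cells, had levels of -1.05 and -1.26 on the titled UT arrays and of -5.16 and -4.50 on the titled DSS arrays. The groups did not overlap, and Lgr5 was 12.8-fold lower in titled DSS (-3.68, SE 0.24, adjusted p = 0.000649). Its level was -1.41 to -0.93 on the 4 knockout UT arrays and -5.78 to -5.18 on the 4 knockout DSS arrays, so the titled UT arrays sat with the former and the titled DSS arrays near the latter. The knockout response was -4.40, and the difference of WT from it was 0.72 (adjusted p = 0.111).

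Other crypt genes divided. Of 17 crypt base and stem cell genes, 6 were lower and 3 higher (17.0% and 14.8% of all genes). Their median was -0.50, and in the knockouts 12 fell (median -0.88). Slc12a2, the sodium-potassium-chloride cotransporter of crypt cells, had 3.45 and 2.81, then 0.77 and 1.01 (-2.24, SE 0.24, adjusted p = 0.0015). Axin2, a direct Wnt target, had -3.55 and -2.97, then -5.02 and -3.90 (-1.20, SE 0.36, adjusted p = 0.0327; 0.184 without titled DSS replicate 1), and its knockout fall of 3.43 was larger (difference 2.23, adjusted p = 0.0144). Nkd1, a Wnt-induced inhibitor of the same pathway, ran against them with -0.31 and 0.36 in titled UT and 1.37 and 1.57 in titled DSS (1.45, SE 0.24, adjusted p = 0.0042). The WT difference lay above the knockout response for 8 of the 17 (10.3% of all genes) and below it for 1. With the WT arrays alone 2 crypt genes were lower and 0 higher, and without titled DSS replicate 1 the lower count was 3.

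Genes of the cell cycle were lower in titled DSS. Of 30 tested, 20 were lower and 0 higher (17.0% and 14.8% of all genes). All 30 had a negative sign, and both titled UT arrays lay above both titled DSS arrays for 27 (34.1% of all genes). The median difference was -1.37, against -1.65 in the knockouts, where 29 fell. Mki67, the Ki-67 antigen of dividing cells, had 4.71 and 4.32, then 2.55 and 2.33 (-2.08, SE 0.29, adjusted p = 0.00268). Kif11, a spindle motor, had -0.71 and -0.35, then -2.57 and -3.15 (-2.33, SE 0.35, adjusted p = 0.0033), or 5.03-fold lower. Ccna2 (cyclin A2) had 3.01 and 2.79, then 0.63 and 0.52 (-2.32, SE 0.34, adjusted p = 0.00292). Cdk1, the mitotic kinase, had 1.67 and 1.27, then -0.59 and -0.91 (-2.22, SE 0.30, adjusted p = 0.00263). Mcm2, a subunit of the replicative helicase, had 0.26 and 0.41, then -1.24 and -1.19 (-1.55, SE 0.18, adjusted p = 0.00193). With the WT arrays alone 9 were lower, and without titled DSS replicate 1 it was 12.

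The promoters of these genes are shown because the members moved together. The factor NF-Y binds CCAAT boxes, and complexes that contain MuvB bind the cell cycle genes homology region (CHR), in the promoters of many cell cycle genes. The letters CCAAT and TTTGAA were searched on both strands of RefSeq windows (GRCm38.p6) from 250 bases before to 50 bases after the start, a search added after the values were seen. CCAAT stood in 20 of the 26 members with a window (76.9%, against 41.1% of 27025 genes), TTTGAA in 12 (46.2%, against 20.2%), and both in 12 (46.2%, against 7.97%). Capitals mark the matches in 2 stretches, from bases -203 to -78 of Mki67 (chr7:135716457-135716582, minus strand) and from -190 to -50 of Mcm2 (chr6:88898830-88898970, minus strand), each read 5′ to 3′ on the strand of the gene.
Mki67: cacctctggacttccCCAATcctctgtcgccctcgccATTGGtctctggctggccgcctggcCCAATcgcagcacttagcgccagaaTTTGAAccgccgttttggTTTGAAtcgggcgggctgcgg
Mcm2: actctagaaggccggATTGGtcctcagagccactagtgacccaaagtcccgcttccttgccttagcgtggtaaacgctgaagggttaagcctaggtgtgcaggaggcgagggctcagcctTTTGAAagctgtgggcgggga
Mki67 holds 3 CCAAT boxes and 2 TTTGAA matches, and Mcm2 holds 1 of each. Of the 12 members with both, Ccnb2, Plk1, Aurka and Cdc20 did not pass in WT (adjusted p = 0.2285, 0.2294, 0.2546 and 0.05146), and the others were lower. A match is a run of letters, not a measured binding site, and a link between the matches and the WT difference was not tested.

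Several of the other largest negative differences were of secreted proteins and enzymes. Hamp, the iron hormone hepcidin, had -2.81 and -4.34 in titled UT and -8.68 and -7.68 in titled DSS, where it was not well above background (-4.61, SE 0.69, adjusted p = 0.00325), at least 6.12-fold lower; it fell by 4.40 in the knockouts. Reg4, a lectin of secretory and enteroendocrine cells, had 5.86 and 4.90, then 1.94 and 2.13 (-3.35, SE 0.36, adjusted p = 0.00148), or 10.2-fold lower, and fell by 2.03 in the knockouts. Cpn1, a subunit of carboxypeptidase N, had -0.19 and 0.71, then -3.41 and -2.82 (-3.38, SE 0.47, adjusted p = 0.00275), against a knockout fall of 3.35. Pnliprp2, a pancreatic lipase-related protein, had 0.57 and 1.40, then -2.39 and -2.81 (-3.59, SE 0.60, adjusted p = 0.0046). Pla2g4c, a cytosolic phospholipase, had -2.87 and -4.01, then -8.50 and -7.47, not well above background (-4.55, SE 1.41, adjusted p = 0.039; 0.169 without titled UT replicate 1), at least 6.72-fold lower.

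Besides Hamp, several of the genes that fell most in the knockouts were lower in titled DSS too, with smaller differences. Nox1, the epithelial NADPH oxidase, had -2.43 and -2.25, then -4.75 and -4.71 (-2.39, SE 0.39, adjusted p = 0.00412), and its knockout fall of 4.22 was larger by 1.83 (adjusted p = 0.0321); with normexp background correction that difference was -0.75, of the opposite sign, and without titled DSS replicate 2 its adjusted p was 0.101. Otc, ornithine transcarbamylase, had 1.63 and 0.79, then -1.15 and -1.16 (-2.37, SE 0.56, adjusted p = 0.0151; 0.086 without titled UT replicate 1). Kcne2, a potassium channel subunit, had 0.39 and -0.24, then -1.71 and -2.0 (-1.93, SE 0.52, adjusted p = 0.0233; 0.120 without titled UT replicate 1). Cldn2, the pore-forming claudin of crypts, had 1.24 and 2.13, then 0.14 and 0.48 (-1.37, SE 0.61, adjusted p = 0.116), against a knockout fall of 5.56. H2bc23, a histone, and Greb1, an oestrogen-regulated gene, fell by 3.81 each in the knockouts, and their WT groups overlapped (-0.02 and -0.57).

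Some goblet cell products were lower in titled DSS. Of 16 goblet cell genes 5 were lower and 2 higher (17.0% and 14.8% of all genes). Their median was -0.11, and in the knockouts 3 of the 16 fell, which is near the 15.8% of all genes. Spink4, a protease inhibitor of goblet cells, had 9.19 and 8.32 in titled UT and 6.61 and 6.70 in titled DSS (-2.10, SE 0.31, adjusted p = 0.00298), while the knockout response was -0.16 and the 8 knockout arrays lay between 8.21 and 9.07. Ang4, an angiogenin with antimicrobial activity, had 9.15 and 8.26, then 6.93 and 7.51 (-1.49, SE 0.34, adjusted p = 0.013; 0.084 without titled DSS replicate 1). Retnlb, the goblet cell hormone RELM-beta, had 8.57 and 7.86, then 6.65 and 6.86 (-1.46, SE 0.30, adjusted p = 0.00941; 0.0584 without titled DSS replicate 1). The WT difference of each lay below the knockout response (by 1.94, 1.38 and 1.75, adjusted p = 0.0143, 0.0481 and 0.0186), and none of the 3 passed without titled DSS replicate 1 (0.0507 to 0.164). With the WT arrays alone, and without titled DSS replicate 1, 1 goblet cell gene was lower. Muc2, the main mucin, was not matched to a probe.

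Antimicrobial and acute-phase genes went both ways, with 2 of 22 higher and 3 lower (14.8% and 17.0% of all genes). Lbp, the lipopolysaccharide-binding protein, had -2.94 and -2.55, then -0.43 and -0.41 (2.32, SE 0.18, adjusted p = 0.000806), and rose by 2.56 in the knockouts. Itln1, a lectin for microbial glycans, had 2.90 and 2.68, then 0.63 and 0.34 (-2.31, SE 0.33, adjusted p = 0.00278). Reg3b, an antibacterial lectin induced by IL-22, was at 3.48 to 4.24 on all 4 WT arrays and at -8.09 to -2.83 on all 8 knockout arrays. Its WT groups differed by 0.43 (SE 1.17, adjusted p = 0.804), where the SE takes in the spread within the knockout groups.

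Surface colonocyte genes showed no common direction: 4 of 25 were higher and 2 lower (14.8% and 17.0% of all genes), with a median of 0.09. Fabp2, a fatty acid binding protein, had 8.95 and 8.24, then 6.48 and 6.80 (-1.95, SE 0.45, adjusted p = 0.0133; 0.075 without titled UT replicate 1). Slc51b, a bile salt exporter subunit, had 3.92 and 2.62, then 1.69 and 1.96 (-1.44, SE 0.39, adjusted p = 0.0239), and it rose by 1.27 in the knockouts, a difference of -2.71 (adjusted p = 0.0108). Atp12a, the colonic proton pump, had 0.87 and 0.88, then 2.52 and 3.00 (1.89, SE 0.24, adjusted p = 0.0021). Without titled DSS replicate 1 Slc51b did not pass (adjusted p = 0.113), and 1 colonocyte gene was higher, as with the WT arrays alone.

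Detoxifying enzymes were lower for 11 of 26 and higher for 1 (17.0% and 14.8% of all genes). Their median was -0.67, the same as the knockout median of -0.67, where 13 fell (15.8% of all genes). Gsta3, a glutathione transferase, had 3.16 and 2.68, then 0.90 and 0.97 (-1.99, SE 0.45, adjusted p = 0.0125; 0.0664 without titled UT replicate 1), and fell by 2.54 in the knockouts. Ugt2b36, a glucuronosyltransferase, had 0.70 and 0.50, then -2.48 and -1.91 (-2.79, SE 0.62, adjusted p = 0.0118; 0.0703 without titled DSS replicate 1). Ugt2b5, a close paralog that may share signal, had 1.70 and 1.23, then -1.61 and -1.02 (-2.78, SE 0.91, adjusted p = 0.0467; 0.177 without titled DSS replicate 1). Their responses differed between the knockouts: -2.79 and -2.92 in ATF6aKO against -0.49 and -0.54 in ATF6bKO. Without titled DSS replicate 1 the count of lower members was 3, and it was 3 with the WT arrays alone. Genes of cholesterol synthesis were lower for 4 of 18 and higher for 1 (17.0% and 14.8% of all genes), and the lower count was 2 without titled DSS replicate 1 and with the WT arrays alone; among the lower ones was Insig1 (-1.69, SE 0.23, adjusted p = 0.00251; another probe -1.03), the ER anchor of the sterol sensor.

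The genes of ER protein folding, on which ATF6 acts, showed no common direction in WT. Of 21 ER chaperones and folding enzymes 2 were higher and 4 lower (14.8% and 17.0% of all genes), with a median of -0.12. In the knockouts 6 rose, with a median of 0.31. Hspa5 (BiP), the main ER chaperone and best known ATF6 target, had 5.96 and 5.41 in titled UT and 5.35 and 6.04 in titled DSS. The groups overlapped, with a difference of 0.01 (SE 0.27, adjusted p = 0.980), and the knockout response was 0.80. Calr (calreticulin) had 4.19 and 4.91, then 4.50 and 4.70 (0.05, SE 0.26, adjusted p = 0.898). Hyou1, an Hsp70-like chaperone, had 1.46 and 1.88, then 2.64 and 3.17 (1.24, SE 0.25, adjusted p = 0.00827; 0.0572 without titled DSS replicate 2). Creld2, a protein induced by ER stress, had 4.10 and 4.11, then 4.60 and 4.82 (0.61, SE 0.19, adjusted p = 0.0389; 0.19 without titled DSS replicate 2). Dnajc10, an ER reductase, was lower, with 3.73 and 3.32, then 2.20 and 2.40 (-1.23, SE 0.20, adjusted p = 0.004), as were Cnpy2 (-1.20), Txndc5 (-0.92) and Ppib (-0.64), all 3 lost without titled DSS replicate 1 (adjusted p = 0.0652, 0.224 and 0.135). With the WT arrays alone 0 of the 21 passed in either direction; over all genes that fit called 636.

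The ER stress element, the site that ATF6 and NF-Y bind together, was looked up in the promoters of these genes. Stretches of 3 genes that hold it are shown. Their marked letters are alike because the search required them, and a link between the element and the WT difference was not tested. The letters CCAAT and CCACG with 9 bases between them, on both strands of the same windows, stood in 8 of the 18 members with a window (44.4%) and in 37 of 27025 genes (0.137%). Capitals mark the fixed letters of the element. The stretches run from base -80 to -32 of Hspa5 (chr2:34772010-34772058, plus strand), from -177 to -129 of Calr (chr8:84847060-84847108, minus strand) and from -141 to -93 of Creld2 (chr15:88819505-88819553, plus strand), with the build and reading direction given above.
Hspa5: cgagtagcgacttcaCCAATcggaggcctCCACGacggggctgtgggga
Calr: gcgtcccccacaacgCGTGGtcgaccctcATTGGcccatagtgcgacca
Creld2: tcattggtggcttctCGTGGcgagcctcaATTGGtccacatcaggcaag
The other members with the element were Hsp90b1, Canx, Pdia6, Dnajc3 and Ero1b. Of the 8, only Creld2 passed the threshold, and the differences of Hspa5, Calr and Creld2 were 0.01, 0.05 and 0.61.

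Genes of ER-associated degradation were called in both directions. Of 19 degradation genes 4 were higher and 3 lower, which is near the 14.8% and 17.0% of all genes. Edem1, a mannosidase-like protein that marks misfolded glycoproteins, had 0.74 and 0.96, then 2.09 and 2.47 (1.43, SE 0.18, adjusted p = 0.00218). Sel1l, the scaffold of the HRD1 ligase, had 0.14 and -0.36, then 0.95 and 1.20 (1.19, SE 0.19, adjusted p = 0.00409), and Syvn1, the ligase itself, had 3.22 and 3.23, then 4.26 and 4.49 (1.15, SE 0.19, adjusted p = 0.00441). The brightest probe stands for each gene; for Edem1 other probes gave -0.18 and 0.06, and for Syvn1 another gave -0.23, so these values are uncertain; by the mean of their probes neither passed (0.44 and 0.46, adjusted p = 0.106 and 0.0835). The fourth was Herpud1 (0.72), and the lower members were Erlec1 (-1.01), Derl2 (-0.78) and Ufd1 (-0.66), all 3 lost without titled DSS replicate 1 (adjusted p up to 0.121). Herpud1 was lost without titled DSS replicate 2 (0.139). In the knockouts 1 of the 19 rose and 0 fell.

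Among 15 UPR sensors and factors 4 were higher and 2 lower (14.8% and 17.0% of all genes). Creb3l1, a membrane-bound factor related to ATF6, had -3.49 and -1.88, then -0.56 and -0.33 (2.24, SE 0.44, adjusted p = 0.00819), and its relative Creb3l2 had -4.53 and -3.42, then -2.15 and -2.15 (1.82, SE 0.32, adjusted p = 0.00544). Ern2 (IRE1-beta), the UPR sensor of goblet cells, had -0.85 and 0.53, then 1.14 and 0.84 (1.15, SE 0.37, adjusted p = 0.0434; 0.178 without titled DSS replicate 1), and fell by 0.78 in the knockouts. Eif2ak3 (PERK) was higher by 0.53, and Creb3 (-0.56) and Creb3l4 (-0.62) were lower, all 3 lost without titled DSS replicate 2 (adjusted p = 0.24, 0.14 and 0.155). Xbp1, the IRE1 target, had 1.89 and 3.03, then 2.87 and 2.59, so the groups overlapped. With the WT arrays alone 0 of the 19 and 0 of the 15 passed, in a fit that called 636 of the 23210 genes. Of 26 ATF4 and CHOP targets 3 were higher and 3 lower; the lower ones were Phgdh (-2.05), Nupr1 (-1.69) and Cth (-1.38; adjusted p = 0.0539 without titled DSS replicate 1), enzymes of serine and cysteine synthesis and a stress cofactor.

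**Figure D4:**
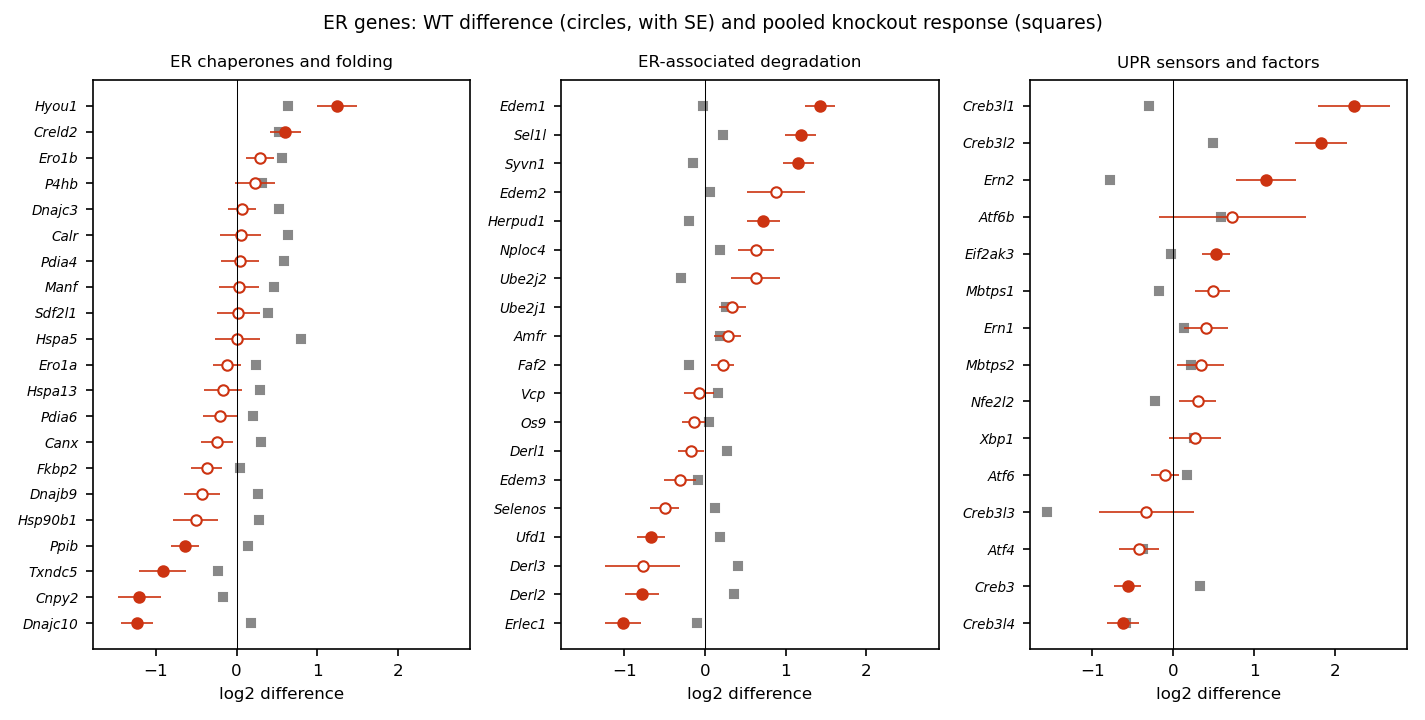
WT difference (circles, log2, with SE; filled where past the threshold) and pooled knockout response (squares) of each tested gene of ER folding, ER-associated degradation and the UPR. Hyou1 and Creld2 are the 2 chaperone genes higher in titled DSS; Hspa5 and Calr lie at 0 in WT and right of it in the knockouts; Edem1, Sel1l, Syvn1, Creb3l1 and Creb3l2 lie right in WT.

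Some stromal and vascular genes were higher in titled DSS. Of 19 fibroblast and matrix genes 4 were higher and 2 lower (14.8% and 17.0% of all genes; median 0.39), and 16 rose in the knockouts. In the WT arrays alone 2 were higher. Col1a1, a chain of type I collagen, had 1.36 and 0.72, then 2.78 and 2.61 (1.65, SE 0.27, adjusted p = 0.00397), with other probes at 1.74 and -0.16. Fn1 (fibronectin) had -0.68 and -0.98, then 0.78 and 0.74 (1.59, SE 0.22, adjusted p = 0.00271). Grem1, the BMP antagonist of crypt stroma, had 2.55 and 2.45, then 4.19 and 3.96 (1.57, SE 0.21, adjusted p = 0.00251), next to a knockout response of 1.64. Has1, a hyaluronan synthase, had -5.40 and -5.78, then -2.09 and -2.59 (3.25, SE 0.39, adjusted p = 0.00195), and Chrdl2, a BMP inhibitor, had -1.93 and -2.05, then 1.01 and 1.13 (3.06, SE 0.25, adjusted p = 0.000806), with knockout rises of 1.76 and 2.14.

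Of 14 endothelial markers 6 were higher and 0 lower (14.8% and 17.0% of all genes), with a median of 0.49. Icam1, the leukocyte adhesion molecule, had -6.68 and -4.34, then -2.86 and -3.71 (2.22, SE 0.64, adjusted p = 0.03; 0.153 without titled DSS replicate 1). Flt1 and Kdr, the receptors of vascular endothelial growth factor, were higher by 1.66 (SE 0.18, adjusted p = 0.00163) and 1.47 (SE 0.17, adjusted p = 0.00178), with knockout responses of 0.51 and 0.44. Without titled DSS replicate 1 the endothelial count was 2, and with the WT arrays alone it was 1. Of 15 smooth muscle genes 4 were higher (1 without titled UT replicate 1 and with the WT arrays alone, 7 without titled UT replicate 2) and 2 lower, among them Synm (1.65; another probe 0.52), an intermediate filament protein, and Hhip (-2.24), the Hedgehog-binding protein, which fell by 1.46 in the knockouts. Of 16 epithelial junction genes 5 were higher (2 without titled DSS replicate 2, 1 with the WT arrays alone) and 1 lower: Jup (plakoglobin) by 2.42 and F11r (JAM-A) by 1.90, with knockout responses of 0.06 and 0.18, and Cldn15 by -1.38, with -1.95.

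Some of the largest WT differences had no counterpart in the knockouts. Zc3h13, a subunit of the RNA methyltransferase complex, had -1.74 and -1.06 in titled UT and 1.53 and 1.80 in titled DSS (3.06, SE 0.22, adjusted p = 0.000649); all 8 knockout arrays lay between 1.19 and 2.13. Other Zc3h13 probes gave 1.77 and 0.55, and the mean of its probes 1.79 (adjusted p = 0.000875). Tnrc18, a chromatin protein, had -2.13 and -2.02, then 0.97 and 0.85 (2.99, SE 0.18, adjusted p = 0.000649), with 0.80 to 1.75 on the knockout arrays. Tcf7l1, a Wnt pathway repressor, had -1.86 and -0.92, then 1.93 and 2.02 (3.36, SE 0.30, adjusted p = 0.000886), with 2.27 to 2.74 on the knockout arrays and 2.16 for another probe. For these genes the titled UT arrays were the low ones of the series, and the titled DSS arrays lay within 1 log2 unit of the knockout arrays.

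Of the 12 largest negative differences, 4 were of the odorant receptor genes Olfr134 and Olfr902 and the sperm genes Spaca1 and Adam18. Their highest levels in the series were on the titled UT arrays. The rule that named them required signal well above background on both of those arrays, so this is in part fixed by the choice. With only probes well above background on all 12 arrays, 2 of the 12 genes remained. A second probe gave a difference of 0.15 for Spaca1 and of 0.05 for Adam18, so both results rest on 1 probe. These second probes were left out because neither was well above background on both arrays of any group. Olfr134, an odorant receptor gene, had -2.24 and -1.92 on the titled UT arrays and -8.78 and -7.83, at the floor of the processed signal, on the titled DSS arrays (-6.23, SE 0.80, adjusted p = 0.0022), at least 17.2-fold lower; the 8 knockout arrays lay between -8.38 and -5.11. A second Olfr134 probe gave -2.33, so the size is uncertain. Olfr902, another such receptor, had -4.81 and -4.34 and the same floor values in titled DSS (at least 3.05-fold lower), with -8.38 to -6.25 on the knockout arrays. The transcript 4933402J07Rik had -4.70 and -4.63 against -8.67 and -7.91 (at least 2.86-fold lower), and -8.38 to -7.70 on the knockout arrays. Spaca1 had -2.35 and -4.94, then -7.28 and -7.85 (-3.92), with -8.25 to -5.81 on the knockout arrays, and Adam18 had 0.44 and -0.30, then -3.85 and -2.55 (-3.27), with -8.34 to -6.12; without titled DSS replicate 2 and titled DSS replicate 1 their adjusted p was 0.0659 and 0.0579.

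Ribosomal protein genes, a group chosen after the values were seen, were lower for 57 of 77 and higher for 0 (median -1.01). Over all genes 17.0% were lower and 14.8% higher. In the knockouts 11 of the 77 fell (median -0.14), which is near the 15.8% of all genes. Their mean level was 7.08 and 6.52 on the titled UT arrays, 5.77 and 5.96 on the titled DSS arrays and 6.20 to 6.43 on the knockout arrays, so the WT groups lay on both sides of the knockouts. Genes of oxidative phosphorylation were lower for 10 of 22 and higher for 0 (median -0.53), with none called in the knockouts; the mean level was 6.40 and 6.06, then 5.58 and 5.81, and 5.54 to 5.84 on the knockout arrays. Ndufa4 (-1.25), Cox7a2 (-1.17) and Atp5j (-1.08), subunits of the respiratory chain and of the ATP synthase, were lower. Under quantile normalization the medians were -0.45 and -0.09, with 32 ribosomal protein genes lower and 4 higher and 3 oxidative phosphorylation genes lower and 3 higher. Without titled DSS replicate 1, 15 ribosomal protein genes and 0 oxidative phosphorylation genes were lower, and with the WT arrays alone 0 of each.

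The WT difference also followed the genomic span of genes. In the fifth of genes with the shortest span (median 3525 bases) the median difference was -0.25, with 6.51% higher and 23.7% lower, and in the fifth with the longest (median 116308 bases) it was 0.14, with 21.7% higher and 12.2% lower. In the knockouts the medians were -0.0015 and 0.05. Each of the 4 pairs of a titled DSS and a titled UT array gave a negative median for the shortest spans (-0.31 to -0.22) and a positive one for the longest (0.06 to 0.17). The part of gene span, of the ribosomal protein level and of the spread between the titled UT arrays in the other WT differences was not tested.

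**Figure D5:**
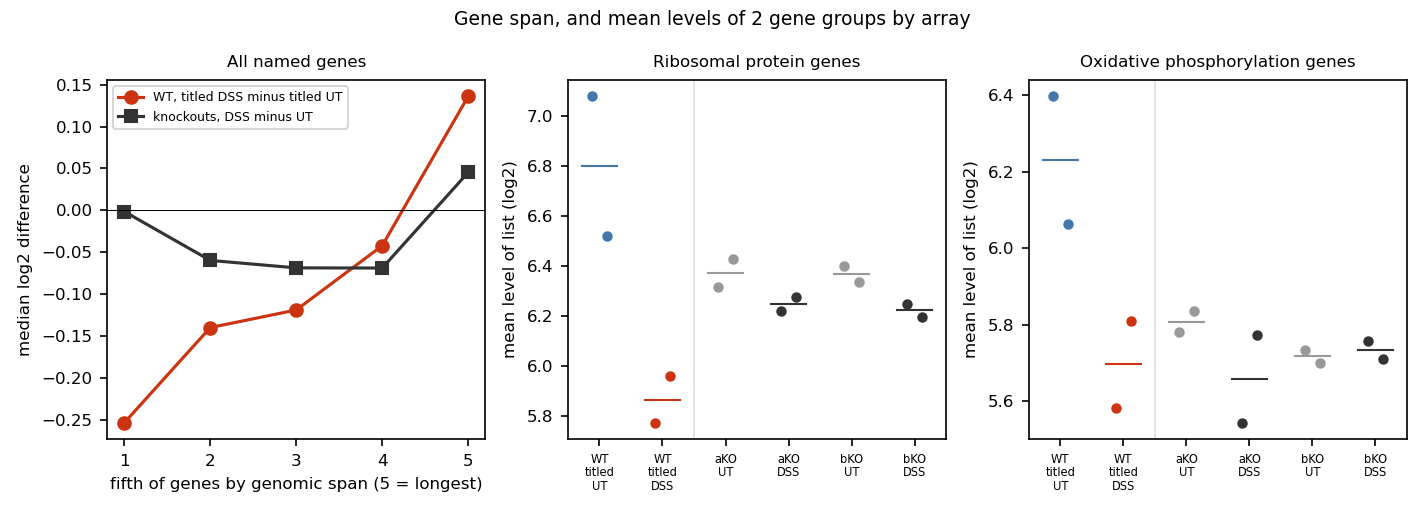
Left, median log2 difference in WT (circles) and in the pooled knockouts (squares) in 5 groups of genes by genomic span; middle and right, mean level (log2) of 77 ribosomal protein genes and of 22 oxidative phosphorylation genes on each of the 12 arrays, with a bar at each group mean. The WT medians run from -0.25 to 0.14, and both gene groups are highest on the titled UT arrays.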

How the data were processed

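Per the file headers and the submitters' processing notes, the authors scanned the 12 arrays and read the spots out in Agilent Feature Extraction (10.7.1.1); the deposited scanner files hold, per spot, a background-subtracted processed signal, an intensity with no scaling between arrays. Levels are log2 of that intensity minus log2 of the array's 75th percentile, without control spots and outlier spots; spots of a probe were averaged. Probes well above background on both arrays of at least 1 group were kept (30428 of 41174), and the brightest probe stood for a gene, which left 23210 genes, 14582 of them (62.8%) named through RefSeq (GRCm38.p6) by accession. The WT scanner files carry an older version of the array design than the knockout files: the probes are matched by probe name, 5471 have another accession in it, and for 11 both accessions give different symbols. Of 649 genes on 37 lists, 595 were tested.

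The deposited value table holds log2 values of the authors; they are centred per probe (41267 of 41268 average 0 to within 0.001), they run in the direction of the arrays, and their scaling is unknown (column medians -0.20, -0.46, -0.33 and -0.28 for WT, 0.01 to 0.24 for the knockouts). Of its 12 columns 8 hold the array of another sample; each was taken as the array it equals and used as an alternative.

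Differences were tested with limma 3.58.1 (lmFit, eBayes) in R 4.3.3, from 6 group means over 12 arrays, and the pooled knockout response from a fit of the 8 knockout arrays that includes genotype; p-values were adjusted by Benjamini-Hochberg with a threshold of 0.05. On simulated data of 23210 genes, 18% of changes of 1 and 67% of changes of 2 log2 units were recovered, with 2 false calls. The simulation changed 200 genes and gave each gene 1 normal spread on all 12 arrays. The titled UT arrays differed more from each other than the arrays of other groups. The simulated false calls therefore do not measure those of the WT comparison. The number of arrays limits the precision. Named genes were the 12 largest each way past the threshold with at least 1 log2 unit, groups not overlapping and the higher group above background, the largest 3 of each list past the threshold, the 8 largest knockout responses each way, the 6 largest differences from the knockouts each way and 28 reference genes; further genes were named after their values were seen. The comparison, the lists and the rules were chosen with earlier results of these data known. Alternatives were other background correction, scaling, filters and probe choice, the WT arrays alone, the value table, a replicate block, array weights and leaving out each array. Single results of some list members are not reported here.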

Additional observations from a re-analysis of the deposited data

Results flagged for a closer look

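The WT difference was set against the mean knockout response by a test of the difference itself, and 4627 genes passed when the titles are read and 8505 when the treatment field is read. The following differences, in log2 units, passed under the titles and are given as values. Of these 29, 16 lost their call without titled DSS replicate 2, and leaving out another array cost no further gene its call: Krtdap (adjusted p = 0.135), Iigp1, Cxcl1, Pimreg, Adam18, Egr1, Lyz2, Nox1, Il22, Spaca1 (0.0894), Spag17 (0.069), Cxcl9, Arg1 (0.065), Tmem145, S100a8 (0.0525) and Cldn2 (0.0507). With array weights 20 lost it, and with normexp 10. Several of the 16 lost their call without most other single arrays too, among them Egr1, Iigp1, Krtdap, Cxcl1, Adam18 and Pimreg.

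The WT difference lay above the knockout response for Tcf7l1 (3.47), Zc3h13 (3.03), Tnrc18 (3.02), Tmem145 (2.83) and Egr1 (1.39), which were higher in titled DSS. It did so also for genes that fell in the knockouts: Cldn2 (4.19), H2bc23 (3.79), Nags (3.59), Greb1 (3.24), Axin2 (2.23) and Nox1 (1.83). Spag17 (4.14) and Prr18 (4.03) had positive WT differences of 2.42 and 1.63 and knockout responses of -1.72 and -2.40.

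It lay below the knockout response for genes that were lower in titled DSS: Olfr134 (-5.31), Spaca1 (-4.54), 4933402J07Rik (-3.59), Olfr902 (-2.93), Adam18 (-2.77) and Pimreg (-1.61). The same sign was found for genes with a positive knockout response: Krtdap (-6.02), Wfdc21 (-5.51), S100a8 (-5.30), Arg1 (-4.61), S100a9 (-4.35), Cxcl9 (-4.00), Iigp1 (-2.82), Il22 (-2.78), Cxcl1 (-1.75) and Lyz2 (-1.57). Krtdap, a keratinocyte gene, was at 3.53 on ATF6bKO DSS replicate 2 and at -6.93 to -2.18 on the other 7 knockout arrays, and Iigp1 was at 5.30 and 5.40 on the ATF6bKO DSS arrays and at 1.63 and 0.83 on the ATF6aKO DSS arrays.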

How the results depend on the processing

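Of 195 results of single genes, 1 that passed changed sign: the difference of Nox1 from the knockouts, 1.83, was -0.75 with normexp. Array weights cost 95 of them their call, the replicate block 28 and normexp 21. The counts higher and lower in titled DSS were 3424 and 3948; background correction by normexp, quantile normalization, the strict filter, the mean of probes and the value table kept both within 1.5 times. The cause of each change below was not tested. Without the filter on dim probes, 456 genes that rose in the knockouts were higher and 82 lower, 824 that fell were lower and 167 higher, and 2382 genes differed from the knockouts under the titles. With the 4 WT arrays alone the counts were 396 and 240 over all genes (62.3% higher, against 46.4% in the fit of 12 arrays), 90 and 5 of the genes that rose, 141 lower and 15 higher of those that fell, and 20 higher and 22 lower list members. With array weights, added after the data were seen, they were 997 and 1094, then 274 and 33, 433 and 104, 36 and 24, and 1034 (titles) and 5262 (treatment field) genes differed from the knockouts.

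Same-numbered arrays did not deviate together across genes (correlation of deviations 0.011 in WT). With so few arrays per group, this correlation cannot exclude that same-numbered samples were paired. The fit with a replicate block gave 2622 higher and 2917 lower genes, 425 and 127 of the genes that rose in the knockouts, 769 lower and 137 higher of those that fell, and 2298 differing from the knockouts under the titles.

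Leaving out 1 array at a time gave 1462 to 4903 higher and 1499 to 5560 lower genes, 322 to 1092 and 42 to 433 of the genes that rose, 588 to 1459 lower and 111 to 534 higher of those that fell, 57 to 130 higher and 34 to 106 lower list members, and 1025 to 9431 (titles) or 5159 to 11160 (treatment field) genes differing from the knockouts. The lowest values came without a titled DSS replicate and the highest without titled UT replicate 2, except that 1092 was reached without ATF6bKO UT replicate 2. A group left with 1 array is assumed to vary like the other groups. Of 161 WT differences of single genes, 72 lost their call with the WT arrays alone. Several WT calls reported as lost without a named array were lost without most other single arrays too. Among these were Cxcl5, Ern2, Creld2, Ccl5 and Klrd1. With 2 arrays per group, few of the smaller changes can be detected.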

Other observations

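Gene groups not described above were mixed. Of 16 circadian clock genes 4 were higher and 0 lower in titled DSS (14.8% and 17.0% of all genes), while 5 fell in the knockouts. Bhlhe40, a repressor of the clock, had 0.46 and 0.19 on the titled UT arrays and 1.64 and 1.95 on the titled DSS arrays (1.47, SE 0.22, adjusted p = 0.0031), with a knockout response of -0.02. Cry2, a core repressor, had -2.73 and -1.56, then -0.86 and -0.82 (1.31, SE 0.33, adjusted p = 0.0191; 0.0828 without titled DSS replicate 2), and it fell by 1.05 in the knockouts. Per1 had -1.25 and -1.54, then -0.37 and 0.29 (1.35, SE 0.38, adjusted p = 0.0266; 0.153 without titled DSS replicate 2). The WT difference lay above the knockout response for 5 of the 16 and below it for 0 (10.3% and 9.60% of all genes). With the WT arrays alone 0 of them passed.

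Of 19 enteroendocrine genes 2 were higher and 2 lower (14.8% and 17.0% of all genes). Pyy, the peptide hormone of colonic L cells, had 4.65 and 5.07, then 6.19 and 6.39 (1.43, SE 0.19, adjusted p = 0.0023), next to a knockout rise of 1.23. Nts (neurotensin) had 0.23 and 1.23, then -3.18 and -0.58 (-2.62, SE 0.74, adjusted p = 0.0276; 0.12 without titled DSS replicate 1), and it rose by 1.24 in the knockouts. Of 10 tuft cell genes 3 were higher: Avil (1.40), Gfi1b (1.07; adjusted p = 0.1 without titled DSS replicate 2) and Alox5ap (1.01), and with the WT arrays alone 0. Of 10 genes of enteric neurons and glia 3 were higher and 1 lower, led by Nos1, the neuronal nitric oxide synthase (-6.81 and -6.83, then -4.92 and -5.19; at least 2.20-fold). Of 10 mast cell genes Kit was higher (0.71) and Tpsb2 lower (-1.03), both lost without titled DSS replicate 2 (0.0785 and 0.202). Fatty acid oxidation had 1 of 21 higher (Cpt1a, 0.74) and 1 lower (Echs1, -0.60), both lost without titled DSS replicate 1 (0.161 and 0.227). Among 8 adipocyte genes Pnpla2 was higher (1.22; 0.0533 without titled DSS replicate 2), and among 5 genes of small intestine and pancreas Sis was lower (-1.46; 0.112 without titled UT replicate 1). No gene of the squamous, erythroid or skeletal muscle lists (12, 4 and 7 tested) passed in WT; over all genes limma called 7372, and 10204 had an unadjusted p under 0.05.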
